A study of Homo sapiens with 12 samples.

Results

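SMAD6, SMAD7, NOG and BMP7 are 4 genes of the bone morphogenetic protein (BMP) and transforming growth factor beta (TGF-beta) pathways, 3 of them inhibitors of the signal and 1 a ligand. They were chosen by their differences between the groups compared here, as known from earlier results of these data, and taken by gene symbol wherever the 2 deposited tables list them. The table of the GPX4 inhibitor RSL3 lists 4 of the 4 among 1810 genes, and the table of ATOH8 overexpression lists 2 of the 4, SMAD7 and NOG, among 1424 genes and assembled loci. RNA was sequenced from DU145, a human prostate cancer cell line, in 12 libraries that form 4 groups of 3. Wild-type cells received the solvent DMSO or, for 24 h, RSL3, which triggers the iron-dependent cell death called ferroptosis. In the other experiment, cells carrying an overexpression control (oeCTRL) were set against cells overexpressing the helix-loop-helix transcription factor ATOH8 (oeATOH8). The vector, whether the overexpressing cells were 1 clone or a pool, and whether replicates were separate cultures are not given in the sources used here, so errors and p-values measure only the spread between these libraries, which may be technical.

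BMPs are secreted ligands that join receptor kinases at the cell surface. The activated receptors phosphorylate SMAD1, SMAD5 and SMAD9 for BMPs, or SMAD2 and SMAD3 for TGF-beta and activins, and these enter the nucleus with SMAD4. The signal switches on its own brakes: SMAD6 and SMAD7 act inside the cell on receptors and on the other SMADs, and noggin, the product of NOG, is secreted and holds BMP ligands away from their receptors. ID3, a helix-loop-helix protein without a DNA-binding region, and ATOH8 itself are known as genes that BMP signalling can switch on.

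The promoters of the inhibitory SMADs carry short sequences of the kinds that SMAD proteins bind, and 4 stretches are shown. Any tie between these sequences and the values below was not tested. RefSeq promoter windows (GRCh38.p14, 250 bases before to 50 after a gene start) were matched by symbol for SMAD6, with 1 window, and SMAD7, with 3 windows. For NOG and BMP7 the reference used here held no window, so their promoters were not searched. Both strands were searched for 5 motifs. These were the palindromic SMAD box GTCTAGAC, the CAGAC box, the GC-rich motif GGCGCC known for SMAD1 and SMAD5, its variant GGAGCC, and the E-box CANNTG of helix-loop-helix factors. Capitals mark the SMAD motif chosen for each stretch, so the E-box CATATG in the SMAD6 box stretch is in lower case. Each sequence is written 5′ to 3′ along the gene's own strand.
SMAD6 box, chr15:66702213-66702242, plus strand: gccgccaaagtGTCTAGACtggcatatgat
SMAD6 pair, chr15:66702107-66702136, plus strand: ccccgGGAGCCggccccttGGAGCCtccgg
SMAD7 distal, chr18:48951166-48951195, minus strand: agccggacgccccCAGACctctgaggttcg
SMAD7 proximal, chr18:48951077-48951106, minus strand: cttcttattttgcCAGACgtctcatgcggg

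The palindromic box of SMAD6 begins 12 bases upstream of the RefSeq start and was found in 71 of 35116 windows of the same length, or 0.202%. GGAGCC begins 124, 110 and 26 bases upstream in the same window, and 3 or more copies on either strand were found in 2.47% of windows, against 36.0% with at least 1. The CAGAC boxes of SMAD7 begin 217 and 128 bases upstream of the most distal of its 3 RefSeq starts. At least 2 CAGAC boxes were found in 13.1% of windows and at least 1 in 45.3%. In the other SMAD7 windows the searched SMAD motifs were CAGAC on the reverse strand in 1 and GGAGCC in the other. One E-box, CATATG, begins 1 base upstream of the SMAD6 start and follows the palindromic box without overlapping it, and E-boxes were found in 68.7% of all windows. SMAD7 has CATTTG 184 bases upstream of its most distal start and CACCTG 49 bases upstream of another. GGCGCC, present in 19.2% of windows, is not among the letters of the SMAD6 or SMAD7 windows. The SMAD6 matches lie inside the span that the RSL3 table gives for the gene, which starts upstream of the RefSeq start. Both SMAD7 stretches lie inside the longer GENCODE span of the gene and outside the span that the RSL3 table gives. A match is a description of the sequence, and binding was not measured here.

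Before the values, the libraries themselves need describing. Summed over listed genes, reads ranged from 2523743 to 3096832 per library in the RSL3 table and from 1508188 to 2226518 in the ATOH8 table, and these sums are not library depths. In the RSL3 table, replicate 1 stood apart in both groups. In a chi-square test of recovered reads, the statistic divided by its degrees of freedom, which counting error alone would put near 1, was 1.64 between replicates 2 and 3 in DMSO and 1.80 in RSL3. It was 59.1 to 101 for pairs with replicate 1, so the groups of 3 may hold fewer than 3 independent samples. In the ATOH8 table it was 6.35 to 9.22 in oeCTRL, and in oeATOH8 29.6 and 39.3 for pairs with replicate 1 against 12.8 for the other pair. The overexpressed gene, ATOH8, counted 13, 10 and 4 reads in the oeCTRL libraries against 76508, 72569 and 76043 where the labels give overexpression. Of 5 epithelial markers each table lists 2: CDH1 went from 456 ± 11.3 in DMSO to 105 ± 57.7 in RSL3, EPCAM from 374 to 124, and in the other table CDH1 from 1812 to 240 and KRT8 from 15457 to 5989 (means). Markers outside the tables could not be assessed. Of 6 markers of other cell types each table lists 1: CD68 was listed at 787 to 1607 in DMSO and 1498 to 4290 in RSL3, and COL1A2 counted 0, 0 and 5 reads without and 92, 72 and 114 reads with ATOH8. Their part in the results was not tested. Both tables hold only genes that the authors called changed, and the 4 genes were chosen with their values known, so their values below are a description without a test.

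With RSL3, the 3 inhibitor genes were higher and the ligand gene BMP7 was lower. Levels are normalised read counts, that is, reads divided by 1 size factor per library set by the authors. The listed position and strand on GRCh38 named each gene. SMAD6 (chromosome 15, 66702110 to 66782849, plus strand), which mainly restrains BMP receptor signalling, had 256, 352 and 346 in DMSO and 973, 879 and 863 in RSL3. The lowest RSL3 library was more than the highest DMSO library by a wide margin, and replicate 1 held both the lowest DMSO and the highest RSL3 value. The means were 318 ± 53.6 and 905 ± 59.3 (SD, n = 3), 2.85-fold apart, and the limma log2 fold change on log2(value + 1) was 1.52 (SE 0.20). The gene AC013564.1 overlaps SMAD6 on the same strand in GENCODE, and its reads may be counted with it.

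SMAD7 (chromosome 18, 48919853 to 48950965, minus strand), which restrains both TGF-beta and BMP receptors, had 109, 97.0 and 102 in DMSO and 194, 222 and 237 in RSL3. The DMSO libraries lay close together and the groups did not overlap. The means were 103 ± 5.94 and 218 ± 21.6 (SD, n = 3), 2.12-fold apart, and the log2 fold change was 1.07 (SE 0.21). Between equal replicate numbers the log2 difference was 0.83, 1.19 and 1.20 for SMAD7, while for SMAD6 it was 1.92, 1.32 and 1.32. Replicate 1 thus gave the larger difference for SMAD6 and the smaller one for SMAD7.

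NOG (chromosome 17, 56593699 to 56595611, plus strand), the gene of the secreted BMP trap noggin, had 57.2, 58.0 and 36.7 in DMSO and 89.8, 139.8 and 126 in RSL3. The groups did not overlap, although the lowest RSL3 library, replicate 1, was nearer to the DMSO range than the other two. The means were 50.6 ± 12.1 and 118 ± 25.8 (SD, n = 3), 2.34-fold apart, and the log2 fold change was 1.22 (SE 0.31). Its replicate-wise differences of 0.64, 1.25 and 1.75 spread more than those of either inhibitory SMAD.

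BMP7 (chromosome 20, 57168753 to 57266641, minus strand) encodes a BMP ligand that noggin can bind. Its recovered reads numbered 19, 15 and 11 with DMSO against 1, 1 and 4 with RSL3. The groups did not overlap, but every RSL3 value rested on 4 reads or fewer. The summed reads, corrected for the size factors, were 6.29-fold lower in RSL3, with an exact conditional 95% interval of 2.67 to 18.0 that covers counting error only. The fitted log2 fold change was -2.33 (SE 0.53) and depends on the added pseudocount, being -1.40 with a pseudocount of 5. The antisense gene BMP7-AS1 overlaps BMP7 in GENCODE, and without strand in the counting, which the sources used here do not give, reads of the pair cannot be told apart.

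**Figure D1:**
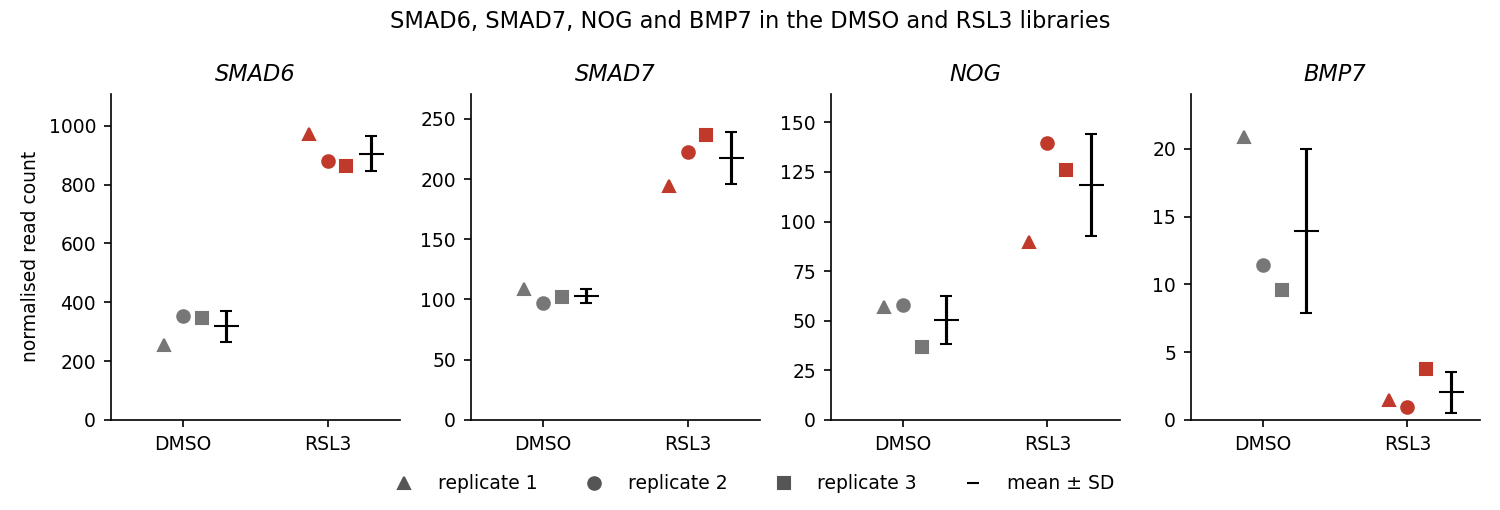
Normalised read counts of SMAD6, SMAD7, NOG and BMP7 (vertical axes from 0, each panel on its own scale) in 3 DMSO and 3 RSL3 libraries, with a marker for each replicate and the mean ± SD in black. SMAD6, SMAD7 and NOG are higher in the RSL3 libraries and BMP7 is lower. Replicate 1 (triangles) lies between replicates 2 and 3 for NOG in DMSO and BMP7 in RSL3 and outside them elsewhere. With 3 values per group, nothing is read from this.

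The groups did not overlap for 4 of the 4 genes, 3 higher and 1 lower, beside 86.4% of all 1810 listed genes (48.5% higher, 37.8% lower), so nothing about these genes is read from that count. With replicate 1 left out of both groups, the log2 fold changes were 1.32 for SMAD6, 1.20 for SMAD7, 1.50 for NOG and -1.92 for BMP7, each in the same direction. The direction of the 4 genes held when libraries were scaled over the listed genes by trimmed mean of M values (TMM), relative log expression or totals. By the totals the log2 fold changes were 1.05 for SMAD6, 0.60 for SMAD7 and 0.75 for NOG.

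Per kilobase of exon, using the merged exons of GENCODE, SMAD6 was the most abundant of the 4 in DMSO, with 37.1 ± 6.26 normalised reads per kilobase, followed by NOG with 26.8 ± 6.39, SMAD7 with 20.4 ± 1.18 and BMP7 with 2.58 ± 1.12 (SD, n = 3). The DMSO libraries overlapped between SMAD6 and NOG and between NOG and SMAD7, and BMP7 lay below all of these. In RSL3 the order was the same, with 106 ± 6.93 for SMAD6, 62.6 ± 13.6 for NOG, 43.2 ± 4.30 for SMAD7 and 0.378 ± 0.277 for BMP7. SMAD6 then lay above NOG in every library, with a lowest value of 100.8 against a highest of 73.9, while NOG and SMAD7 were nearly contiguous, at 47.4 and 47.0. Merged exons include rarely used ones, which lowers the value of a gene with a long model such as SMAD6. For SMAD7 the GENCODE model reaches 48952052, beyond the 48950965 where its span in the RSL3 table ends. Its exon length may thus be too long for these reads, which would lower its value, so the order of NOG and SMAD7 is uncertain.

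Where ATOH8 was overexpressed, SMAD7 and NOG were higher too. SMAD6 and BMP7 are not in this table and could not be assessed. SMAD7 (ENSG00000101665, chromosome 18, 48919853 to 48952052 in GENCODE) counted 373, 336 and 339 reads in the oeCTRL libraries against 881, 772 and 1003 with ATOH8. The oeCTRL libraries differed little, and the lowest oeATOH8 library lay far above the highest of them. After scaling, the means were 353 ± 7.79 and 874 ± 91.6 (SD, n = 3), 2.48-fold apart, and the edgeR log2 fold change was 1.31 (SE 0.10).

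NOG (ENSG00000183691, chromosome 17, 56593699 to 56595590 in GENCODE) counted 15, 32 and 11 reads in the oeCTRL libraries against 118, 149 and 117 with ATOH8. Replicate 2 was the highest library in both groups, and the groups did not overlap. The scaled means were 19.7 ± 11.8 and 127 ± 22.4 (SD, n = 3), 6.46-fold apart, and the log2 fold change was 2.69 (SE 0.39), or 3.28 without oeCTRL replicate 2. The summed reads, corrected for scaling, gave a 6.48-fold difference with an exact conditional 95% interval of 4.91 to 8.70 that covers counting error only. The groups did not overlap for both SMAD7 and NOG, both higher, beside 99.6% of all 1424 listed rows (41.4% higher, 58.3% lower), and nothing is read from that count. Per kilobase of exon, SMAD7 stood at 70.1 ± 1.55 in oeCTRL and 174 ± 18.2 in oeATOH8, and NOG at 10.4 ± 6.22 and 67.2 ± 11.8, so that SMAD7 was above NOG in every library of both groups.

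**Figure D2:**
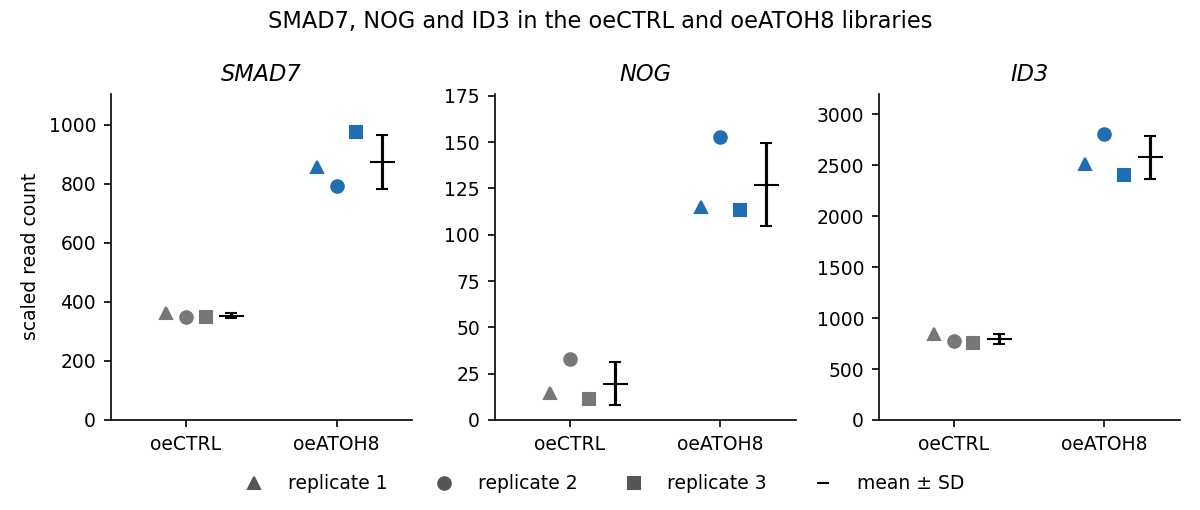
Scaled read counts of SMAD7, NOG and the BMP target gene ID3 (vertical axes from 0, each panel on its own scale) in 3 oeCTRL and 3 oeATOH8 libraries, with a marker for each replicate and the mean ± SD in black. The 3 oeATOH8 libraries lie above the 3 oeCTRL libraries in each panel, and NOG replicate 2 (circles) is the highest of its group in both.

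Fold changes in this table depend on how the libraries are scaled, since the listed genes were all called changed. The log2 ratios leave a gap around 0 that holds no row, and its edges are given with the processing. SMAD7 and NOG, like every listed row, lie beyond it, so a difference of at least that size came with being listed. The scale used here places the middle of the gap at 0. That is right only if the authors cut at equal folds up and down. SMAD7 had a log2 fold change of 1.61 with TMM, 2.22 with relative log expression and 0.85 with totals, and NOG had 3.60 with relative log expression. The directions held under each. Ratios of reads within 1 library do not depend on this choice. NOG had 0.0402, 0.0952 and 0.0325 reads per SMAD7 read in oeCTRL and 0.134, 0.193 and 0.117 in oeATOH8. The ratio was higher in the 3 oeATOH8 libraries than in any oeCTRL library. SMAD7 had 0.427, 0.449 and 0.459 reads per ID3 read in oeCTRL and 0.341, 0.282 and 0.404 in oeATOH8, so the difference of SMAD7 was smaller than that of ID3 by this measure, without overlap.

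With RSL3, SMAD7 had 0.0329, 0.0475 and 0.0521 reads per ID3 read in DMSO and 0.0478, 0.0398 and 0.0425 in RSL3, and the groups overlapped. NOG had 0.525, 0.598 and 0.359 reads per SMAD7 read in DMSO and 0.463, 0.629 and 0.532 in RSL3, which overlapped too. SMAD6 had 2.35, 3.63 and 3.39 reads per SMAD7 read in DMSO and 5.01, 3.95 and 3.65 in RSL3. The groups did not overlap, but replicates 2 and 3 alone ran from 3.39 to 3.63 in DMSO and from 3.65 to 3.95 in RSL3, so most of the distance came from replicate 1. Whether these ratios differ between the experiments was not tested.

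**Figure D3:**
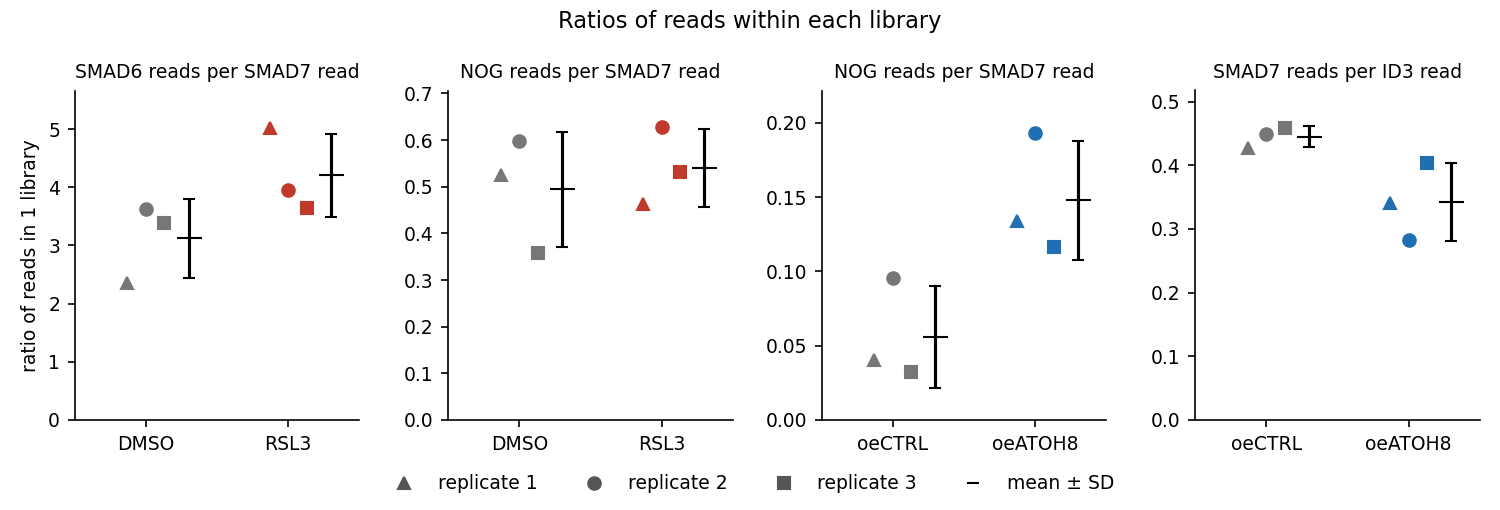
Ratios of reads within each library (vertical axes from 0) for SMAD6 or NOG per SMAD7 read with RSL3, and for NOG per SMAD7 read and SMAD7 per ID3 read with ATOH8 overexpression, with a marker for each replicate and the mean ± SD in black. NOG per SMAD7 read overlaps between DMSO and RSL3 and does not overlap between oeCTRL and oeATOH8.

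The other genes of the pathway were taken from a list of 83 symbols by role, 78 of them besides the 4 genes and ATOH8. With RSL3, 5 of the 78 were listed and fitted: 2 rose, 2 fell and 1 missed the threshold at a limma adjusted p of 0.05 over listed genes. These 4 of 5 stand beside 82.0% of all 1732 fitted genes (43.1% higher, 38.9% lower), so the share is near that of the table. The median log2 fold change was -0.56 for the 5 genes and 0.51 over all fitted genes. Among target genes, ID3 rose 2.08-fold, from 2439 ± 758 to 5070.3 ± 876 (log2 1.08, SE 0.26, adjusted p = 0.0225), and TGFBI, a matrix protein induced by TGF-beta, rose 1.64-fold (log2 0.75, SE 0.24, adjusted p = 0.0363). LTBP2, a matrix protein of the family that binds latent TGF-beta, fell by 0.56 on the log2 scale (SE 0.18, adjusted p = 0.0363). ID3 read 3313, 2043 and 1961 in DMSO and 4059, 5591 and 5562 in RSL3, so its smallest difference was in replicate 1, as for SMAD7 and NOG.

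Among the extracellular regulators and receptors, BMPER, a secreted BMP-binding protein, fell by 0.90 on the log2 scale (SE 0.36, limma adjusted p = 0.0482). Its recovered reads were 72, 262 and 183 with DMSO against 48, 81 and 77 with RSL3. After normalisation replicate 1 stood at 79.1 and 69.5, and hardly differed. BMPR2, the type II BMP receptor, had 34.1, 137 and 126 in DMSO and 18.8, 39.4 and 52.6 in RSL3. Its groups overlapped and its log2 fold change was -1.28 (SE 0.60, limma adjusted p = 0.0707). With the replicate number as a block its limma adjusted p was 0.00635, where 99.3% of all fitted genes passed. None of the 6 signal-carrying SMADs was in the table. BMPR2 also passed by edgeR and DESeq2 on recovered reads, without DMSO replicate 1 and without replicate 1 in both groups. In these settings 90.1%, 99.7%, 83.4% and 98.9% of all fitted genes passed, so nothing about BMPR2 is read from them. The calls for ID3, TGFBI, LTBP2 and BMPER ended when DMSO replicate 2 or 3, or RSL3 replicate 2 or 3, was left out, where 0.346%, 0.462%, 19.1% and 17.9% of all fitted genes passed. The losses thus ran through the whole table. Without replicate 1 in both groups 5 of the 5 genes passed, beside 98.9% of all. Scaling to totals ended the calls for ID3 (log2 0.61, adjusted p = 0.131), BMPER (adjusted p = 0.0679) and TGFBI (log2 0.28, adjusted p = 0.272) in limma, and TMM or relative log expression that for TGFBI. Adjusted as if all 59792 annotated genes had been tested, limma passed 0 of the 5 genes, against 4 at an unadjusted p under 0.05, beside 0.00% of all fitted genes. By that rule edgeR, DESeq2 and the replicate block also passed 0 of the 5, beside 0%, 11.1% and 0.116% of all. Limma with a term for replicate 1 against replicates 2 and 3 passed 0 of the 5, beside 48.2% of all. Limma without replicate 1 passed 5, beside 86.6% of all.

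With ATOH8 overexpression, 6 of the 78 other genes were listed, 2 rose and 4 fell by edgeR at an adjusted p of 0.05 over listed rows. These 6 of 6 stand beside 100% of all 1424 rows (41.4% higher, 58.6% lower). Adjusted as if all 75204 annotated genes and assembled loci had been tested, 5 of the 6 passed, beside 82.0% of all rows. The median log2 fold change was -1.25 for the 6 genes and -1.10 over all rows. ID3 rose 3.25-fold, from 794 ± 46.6 to 2577 ± 209 scaled reads (log2 1.70, SE 0.08, adjusted p = 7.2e-09). CCN2, the matricellular growth factor gene that TGF-beta induces, rose 3.28-fold (log2 1.71, SE 0.07, adjusted p = 2.27e-09).

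The genes that fell in oeATOH8 were 1 ligand gene, 2 receptor genes and 1 intracellular inhibitor. BMP4, a BMP ligand, counted 123, 70 and 89 reads in the controls against 56, 32 and 30 with ATOH8 (log2 -1.28, SE 0.33, edgeR adjusted p = 0.00299). ACVR1C, a type I receptor for activin and Nodal, fell by 2.15 on the log2 scale (SE 0.28, adjusted p = 2.19e-05), with 156, 178 and 122 reads against 31, 29 and 45. TGFBR3, the co-receptor betaglycan, fell by 1.21 (SE 0.18, adjusted p = 6.34e-05). TOB1, an antiproliferative protein that also binds SMADs and dampens BMP signalling, fell by 1.85 (SE 0.06, adjusted p = 6.65e-10), in the opposite direction to SMAD7. With relative log expression scaling, the log2 fold change shrank to -0.38 for BMP4 and -0.31 for TGFBR3, which missed the threshold with adjusted p of 0.306 and 0.152. None of the 6 signal-carrying SMADs was in this table either.

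**Figure D4:**
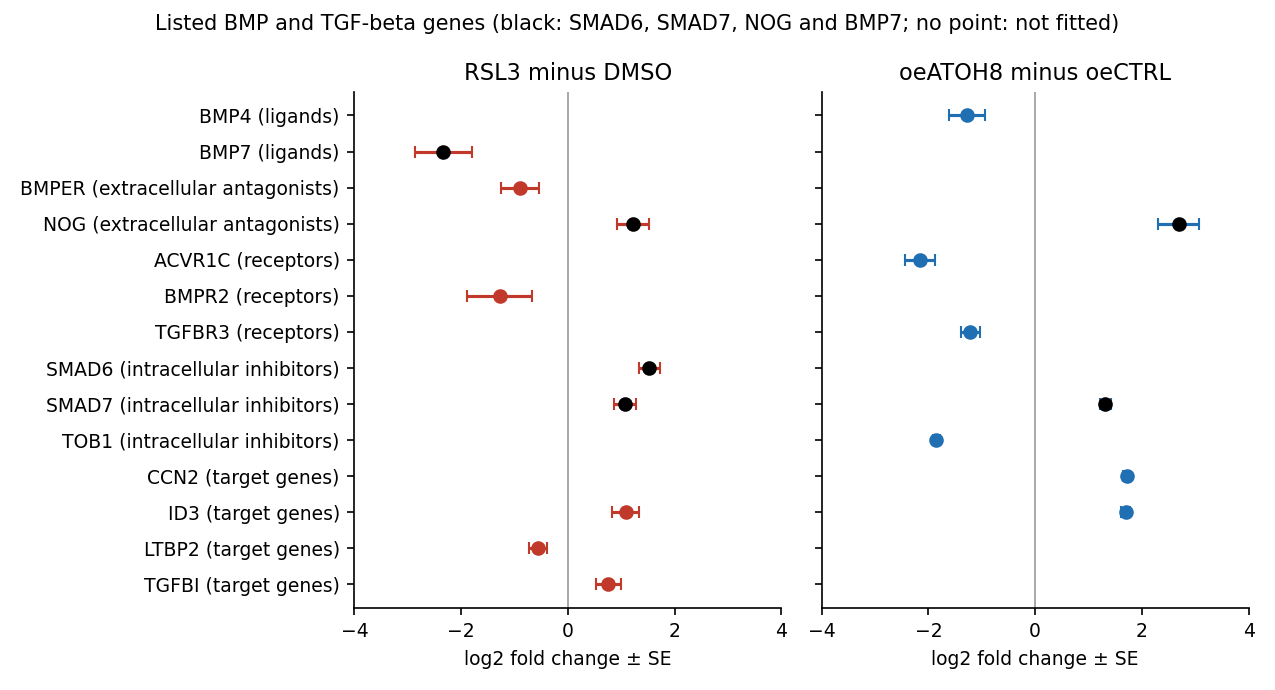
Log2 fold changes ± SE (horizontal axes) of the listed BMP and TGF-beta genes by role, for RSL3 minus DMSO on the left (limma, log2(value + 1)) and oeATOH8 minus oeCTRL on the right (edgeR), with SMAD6, SMAD7, NOG and BMP7 in black and ATOH8 left out. Genes without a point were not listed. SMAD7, NOG and ID3 lie right of 0 in both. The receptor genes lie left of 0 but are different genes, BMPR2 with RSL3 and ACVR1C and TGFBR3 with ATOH8, and none was listed in both.

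The 2 tables share no library. Besides SMAD7, NOG and ATOH8, 1 gene of the pathway list, ID3, was in both. Of all named genes, 14.1% of those listed for RSL3 and 21.8% of those listed for ATOH8 were in both. SMAD7 had a log2 fold change of 1.07 (SE 0.21) with RSL3 and 1.31 (SE 0.10) with ATOH8. For NOG these were 1.22 (SE 0.31) and 2.69 (SE 0.39), and for ID3 1.08 (SE 0.26) and 1.70 (SE 0.08). The tables were scaled apart, so the sizes are given side by side and their differences were not tested.

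**Figure D5:**
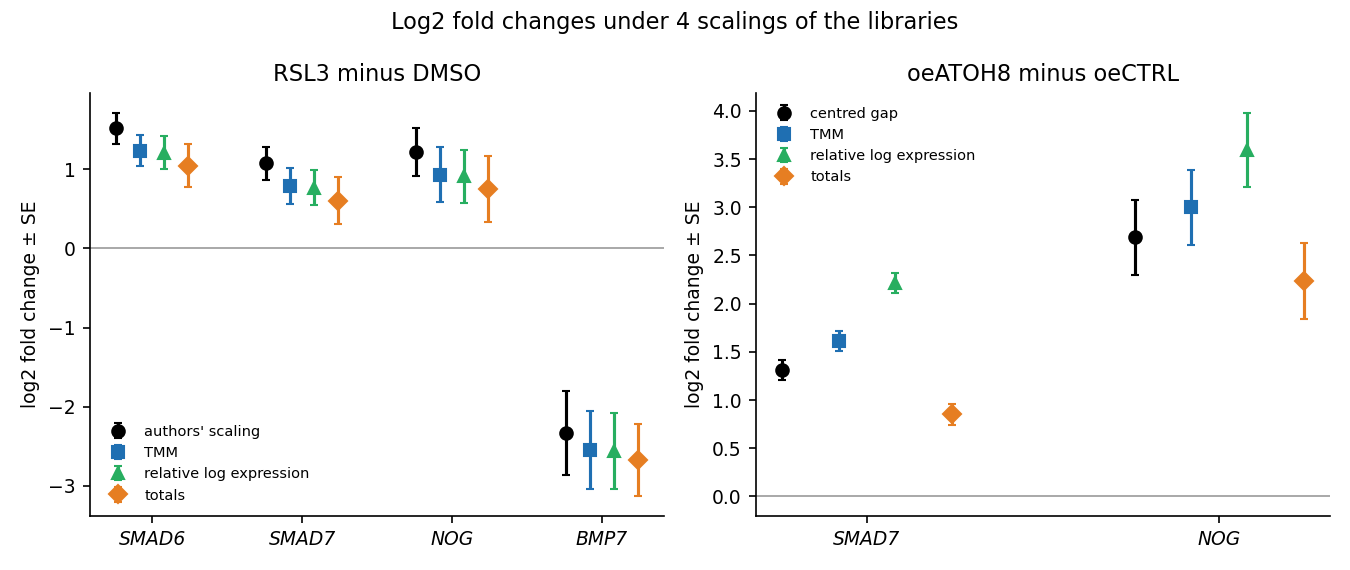
Log2 fold changes ± SE (vertical axes) of SMAD6, SMAD7, NOG and BMP7 for RSL3 minus DMSO and of SMAD7 and NOG for oeATOH8 minus oeCTRL, each under 4 scalings of the libraries. No gene crosses 0, and SMAD7 with ATOH8 runs from 0.85 with totals to 2.22 with relative log expression.

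The genes most like each of the 4 were found by the root mean square difference between log2(value + 1) profiles over the 6 libraries of a table, each centred on its own mean, among named genes with a mean of at least 50 (1368 for RSL3 and 1045 for ATOH8). With RSL3, SMAD6 was closest to IGFBP2 (0.17), PTPRU (0.19) and H2AC25 (0.22), where the median over all candidates was 0.59. SMAD7 was closest to SYBU (0.11), GNG11 (0.11) and KIF26B (0.12), with a median of 0.48. NOG was closest to BEAN1 (0.19), ANKRD24 (0.22) and SAMD11 (0.22), with a median of 0.61. BMP7 was closest to MUC1 (0.45), SCNN1A (0.47) and IFI6 (0.50), with a median of 1.53, and its own values are the least precise. With ATOH8, SMAD7 was closest to TSR3 (0.06), COMTD1 (0.07) and PFAS (0.07), with a median of 1.20, and NOG to the readthrough locus ZNF8-ERVK3-1 (0.42), IL24 (0.45) and TNFSF15 (0.48), with a median of 1.98. Most of these genes are listed in 1 table alone, so nearness cannot be compared between the tables.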

How the data were processed

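The authors deposited 1 table per experiment; the submitters' processing notes name fastp, HISAT2, StringTie and DESeq2 and hg38, without versions or roles. The RSL3 table holds a signal per gene, deposited as read counts divided by 1 size factor per library: per library 100% of values were whole multiples of the smallest within 0.001, so whole reads were recovered. The ATOH8 table holds raw counts, per the file headers, whose NC and OE columns were read as oeCTRL and oeATOH8. RSL3 rows were named by at least 0.5 overlap of spans on the same strand with RefSeq (1064 same span, 546 overlapping) or GENCODE v29 (162), leaving 38 unnamed. Of 1152 Ensembl identifiers, 1137 had a symbol.

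RSL3 values were fitted with limma 3.58.1 on log2(value + 1), with a variance trend, for the genes kept by filterByExpr of edgeR. That filter (count of 10, total of 15) dropped 78 genes. The count test edgeR called 1561 of the 1732 genes on the recovered reads, against 1421 by limma. ATOH8 counts were fitted with edgeR 4.0.16 (quasi-likelihood) after median ratio scaling within groups and centring of the gap in log2 ratios (-0.97 to 1.03 before, -1.00 to 1.00 after). The two-sided p-values were adjusted by Benjamini-Hochberg over listed genes. The fits were checked under R 4.3.3 on simulated counts with independent replicates, known size factors and most genes unchanged. That check does not cover a replicate that stands apart, tables of changed genes alone or uncertain scaling. DESeq2 1.42.0, other scalings, filters and pseudocounts, and leaving out libraries were alternatives.

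Deviations of equal replicate numbers from their group means correlated at 0.68, 0.61 and 0.61 in the RSL3 table. Replicate 1 stood apart in both groups, which by itself moves the deviations of replicates 2 and 3 together. The correlations therefore cannot show that replicates 2 and 3 pair by number, and the labels give no pairing. The 4 genes, the lists and the rule for similar genes were chosen with earlier results of these data known. One gene of the pathway list is not reported here and is left out of its counts.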

Additional observations from a re-analysis of the deposited data

How the results depend on the processing

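No direction of SMAD6, SMAD7, NOG, BMP7 or a fitted pathway gene reversed in the alternatives run. For the 4 genes and the 2 pathway counts, 104 settings stayed within the spread or within 1.5 times, and 20 moved further. With RSL3, the log2 fold change of SMAD6 was 1.23 with TMM, 1.21 with relative log expression and 1.05 with totals, that of SMAD7 0.79, 0.77 and 0.60, and that of NOG 0.75 with totals. The median over all fitted genes was 0.51 as reported and 0.22, 0.20 and 0.04 under these scalings, and the share of passing genes that were higher was 52.6% as reported and 30.02%, 28.8% and 24.2%. BMP7 was -1.40 with a pseudocount of 5. With ATOH8, SMAD7 was 1.61, 2.22 and 0.85 with TMM, relative log expression and totals, and NOG 3.60 with relative log expression, where the median over all rows went from -1.10 to -0.80, -0.19 and -1.56 and the higher share from 41.4% to 58.5% with relative log expression. The count over the whole pathway list, which includes the chosen genes and ATOH8 and is no test of them, was 9 of 10 with RSL3, and 4 with totals, where 36.7% of all genes passed. Leaving out libraries, including the setting without replicate 1 in both groups that was chosen after seeing the data, gave 1.32 to 1.60 for SMAD6, 1.01 to 1.20 for SMAD7, 1.00 to 1.50 for NOG and -2.71 to -1.92 for BMP7 with RSL3, 1.23 to 1.38 for SMAD7 and 2.42 to 3.28 for NOG with ATOH8, and pathway counts of 1 to 10 with RSL3 and 9 of 9 in each setting with ATOH8. The calls for ID3, TGFBI and LTBP2 ended without DMSO replicate 2 or 3 or RSL3 replicate 2 or 3, and that for BMPER also without RSL3 replicate 1, with fewer samples in each fit. With the replicate block the RSL3 pathway count was 10, beside 99.3% of all genes, the added call being BMPR2, and it changed no other call. In the ATOH8 table the numbers correlated at 0.04 to 0.07 and share only a number, and with the block NOG was 2.77, SMAD7 1.30 and the count 9. The cause of these shifts was not tested.

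Few reads limit BMP7 with RSL3 and NOG in oeCTRL, and genes outside the deposited tables cannot be judged.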

Other observations

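The 2 control groups, both DU145, held the feedback genes in different proportions. NOG had 0.359 to 0.598 reads per SMAD7 read in the DMSO libraries and 0.0325 to 0.0952 in the oeCTRL libraries. SMAD7 had 0.0329 to 0.0521 reads per ID3 read in DMSO and 0.427 to 0.459 in oeCTRL. Ratios within a library do not depend on scaling, but the 2 tables were counted apart, with gene models that differ at least in the span of SMAD7, so experiment and counting cannot be told apart.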
